A study of Mus musculus with 13 samples.

Results

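Genes that copy the DNA and drive cell division were examined in RNA-seq data of mammary tumors that arose in TSG101-overexpressing mice. The list holds 48 genes, named by symbol for their place in replication licensing, S phase or mitosis, and all 48 were found among the 15213 genes of the deposited table. All 48 also passed the filter on low abundance. This list and the further gene lists below were chosen with earlier results of these data known. The 10 tumors came from 6 females that carry the MMTV-tTA and TetO-Tsg101 transgenes (MtTA Teto-TSG101wt in the labels), in which a tetracycline-controlled transactivator, itself driven by the MMTV promoter and thus active mainly in the mammary epithelium, switches on an HA-tagged TSG101. A single founder line was chosen for the molecular studies, per the methods. A single tumor was taken from 3 of the females, whereas 2 contributed 2 each and 1 contributed 3, and tumors of one female are not independent samples. The controls were mammary glands of 3 wild-type FVB females. The tumor-bearing females were also on an FVB background. The age and parity of each female sampled, and the reproductive stage of the glands, are not given per sample in the sources used here. The question was which of these genes differed between tumors and glands, and how far the tumors differed from each other.

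A cell copies its genome in S phase and divides in M phase. In G1, the origin recognition complex, Cdc6 and Cdt1 load the MCM helicase onto DNA, and in S phase the helicase opens the double helix with the help of the GINS complex while PCNA holds the polymerases on the template. Cyclin A, cyclin B and CDK1 then carry the cell into mitosis, where the spindle assembly checkpoint holds back the ubiquitin ligase APC/C until all kinetochores are attached. Many replication genes are controlled by E2F proteins, and many mitotic genes by MYB- and FOXM1-bound complexes at a DNA element named CHR. In bulk tissue, fewer cycling cells and less of a transcript per cycling cell cannot be told apart.

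Depth over the listed genes ran from 6176269 to 16835397 reads in the tumors and from 11672487 to 23889042 in the glands, and the lowest count of a replication or mitosis gene was 13 reads, for Cdc25c. Levels are given in normalized cpm, the read count over library size with a scaling factor for each library. The transcript of Tsg101 itself, which should show the transgene, ranged from 49.9 to 101 normalized cpm in the tumors with a median of 63.4, and was at 45.6, 53.0 and 61.0 in glands 1, 2 and 3. The values overlapped (log2 fold change 0.30, standard error 0.20, adjusted p = 0.296, limma), and they do not separate the transgene from the endogenous gene. The share of reads from the ribosomal RNA precursor Rn45s was between 0.456% and 27.4% in the tumors, highest in tumor 9, and was 0.324%, 0.296% and 4.35% in glands 1, 2 and 3. The tissue of the glands differed as well. Genes of 14 lymphocyte markers summed to 1059, 65.2 and 1041 normalized cpm in glands 1, 2 and 3, against 61.6 to 290 in the tumors. Epithelial markers summed to 3843, 5450 and 2526 in the glands and to between 2936 and 5188 in the tumors.

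The comparison used limma on log2(normalized cpm + 1) across all 11795 genes that passed the filter, and a gene was considered significantly higher if it passed an FDR of 0.05 (false discovery rate after Benjamini and Hochberg) and changed over 2-fold. By this rule, 15 of the 48 genes were significantly higher in the tumors, where 10.2% of all genes tested were, and 0 were significantly lower, where 6.99% of all genes were. At an unadjusted p below 0.05, 41 were higher and 0 lower by limma, against 20.0% and 18.2% of all genes. The counts of significantly higher and lower genes were 17 and 0 with edgeR and 18 and 0 with DESeq2, both on recovered reads, where 9.51% and 10.6% of all genes were higher. The FDR alone was passed by 34 of the 48 genes in the direction of the tumors, against 14.8% of all genes. Fitted log2 fold changes had a median of 0.85 over the 48 genes and of 0.014 over all genes tested, and 47 of the 48 were positive. Complete separation, with every tumor above every gland, was found for 22 of the 48, which held for 10.7% of all genes, and for 0 of the 48 every tumor was below every gland, which held for 8.53% of all genes.

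The genes of entry into mitosis and of the spindle checkpoint made up most of the 15. Of 25 mitotic genes (cyclins and their kinase and phosphatases, checkpoint kinases, spindle proteins and kinetochore proteins), 13 were significantly higher, with a median log2 fold change of 1.04. Of the 17 genes of licensing, replication fork and nucleotide supply, 2 were by limma (10.2% of all genes), 4 with edgeR (9.51%) and 4 with DESeq2 (10.6%), with a median of 0.68. The FDR alone was passed by 20 of the 25 and 11 of the 17, against 14.8% of all genes, and every tumor was above every gland for 12 and 9, against 10.7%. The difference between these groups was not tested.

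**Figure D1:**
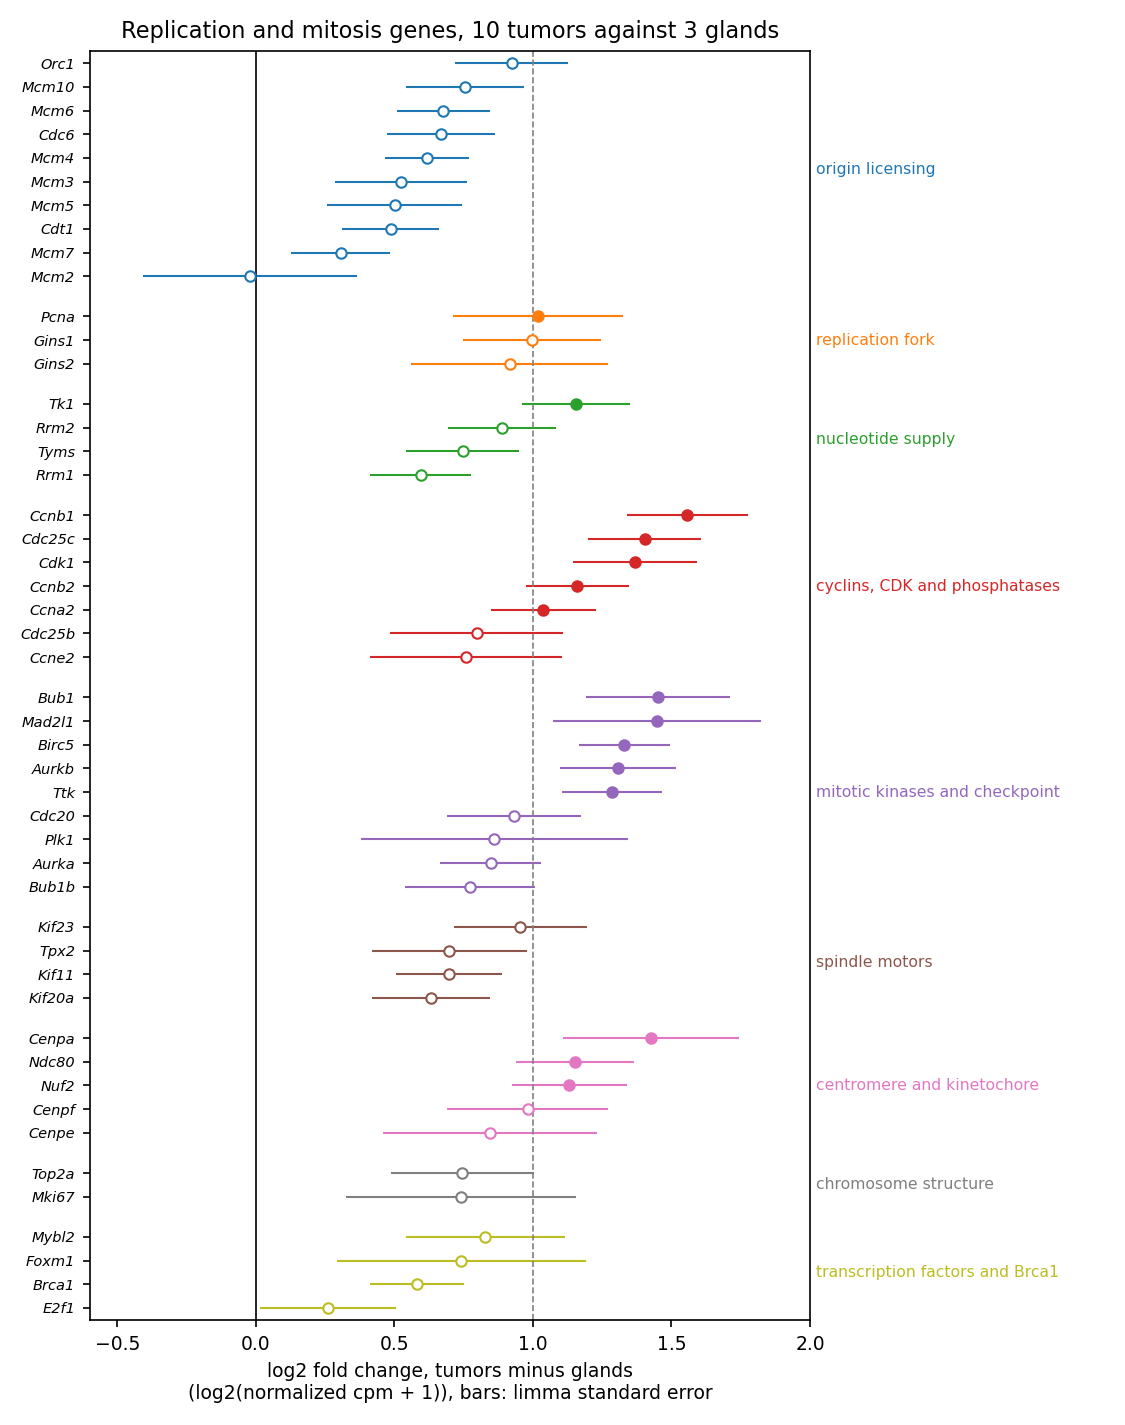
Log2 fold change of each of the 48 genes, tumors minus glands, on the log2(normalized cpm + 1) scale, grouped by role. Bars are the standard error of limma, filled points are the 15 significantly higher genes, and the dashed line marks a log2 fold change of 1; Ccnb1 lies farthest to the right at 1.56 and Mcm2 at -0.021.

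Among the cyclins, their kinase and its phosphatases, 5 of 7 genes were significantly higher in the tumors. Ccnb1 (Entrez 268697; GRCm38.p6 chr13:100778739-100786486), which encodes cyclin B1, the partner of CDK1 at entry into mitosis, was at 7.15, 12.3 and 8.90 normalized cpm in glands 1, 2 and 3 and ranged from 18.0 in tumor 3 to 40.1 in tumor 1, with a median of 29.8. Each tumor was above each gland, and the log2 fold change of 1.56 was the largest of the 48 genes (standard error 0.22, adjusted p = 9.62e-05, limma). Ccnb2, which encodes the related cyclin B2, was at 13.1, 21.2 and 11.8 in the glands and between 27.3 and 43.3 in the tumors, with a median of 34.2 (log2 fold change 1.16, standard error 0.18, adjusted p = 0.000273, limma). Ccna2, for the cyclin A2 of S phase and G2, was at 23.9, 37.7 and 18.4 in the glands and between 43.9 and 67.7 in the tumors, with a median of 53.7 (log2 fold change 1.04, standard error 0.19, adjusted p = 0.000839, limma). For both genes, the lowest tumor, tumor 3, was still above the highest gland, gland 2. Without tumor 10, gland 1 or gland 3, Ccna2 fell under 2-fold and was no longer called. Cdk1, the kinase that these cyclins activate, was at 21.4, 34.0 and 33.5 in the glands and between 49.0 and 102 in the tumors, with a median of 79.3 (log2 fold change 1.37, standard error 0.22, adjusted p = 0.000353, limma). Cdc25c, for a phosphatase that activates CDK1, was a low transcript at 2.91, 3.25 and 1.58 in the glands and between 6.27 and 11.5 in the tumors, with a median of 7.98 (log2 fold change 1.40, standard error 0.20, adjusted p = 0.000123, limma). The groups did not overlap for Cdk1 or Cdc25c. With all 3 glands below the filter limit of 5 normalized cpm, Cdc25c passed the filter only through the tumors. It was called without the filter as well. Cdc25b, for a related phosphatase, did not pass the FDR (log2 fold change 0.80, adjusted p = 0.0727, limma). Ccne2, for the cyclin E2 that works at the start of S phase, had the smallest change of this group, with 2.14, 3.41 and 5.24 in the glands, between 2.64 and 11.8 in the tumors and a median of 7.43 (log2 fold change 0.76, standard error 0.35, adjusted p = 0.121, limma). Tumors 3, 4 and 6 were below gland 3 for Ccne2, and the groups overlapped.

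Of 9 genes for mitotic kinases and the checkpoint, 5 were significantly higher. Bub1, a checkpoint kinase at the kinetochore, was at 8.31, 9.09 and 8.41 normalized cpm in the glands and rose to between 12.8 in tumor 3 and 34.8 in tumor 9, with a median of 26.5 (log2 fold change 1.45, standard error 0.26, adjusted p = 0.000719, limma). Mad2l1, for the checkpoint protein MAD2 that inhibits CDC20, was at 15.3, 17.3 and 37.1 in the glands and between 30.6 in tumor 6 and 114 in tumor 1, with a median of 63.9 (log2 fold change 1.45, standard error 0.38, adjusted p = 0.00973, limma). Bub1 separated the groups, whereas tumors 3 and 6 were below gland 3 for Mad2l1. Mad2l1 was no longer called without gland 1 or without gland 2 (adjusted p = 0.0758 and 0.0570, limma). Ttk, for the checkpoint kinase MPS1, was at 4.32, 6.61 and 5.49 in the glands and between 10.9 and 18.7 in the tumors, with a median of 14.7 (log2 fold change 1.28, standard error 0.18, adjusted p = 9.89e-05, limma). Aurkb, the kinase of the chromosomal passenger complex, was at 8.14, 14.7 and 6.83 in the glands and between 19.6 and 31.7 in the tumors, with a median of 25.02 (log2 fold change 1.31, standard error 0.21, adjusted p = 0.000287, limma). Birc5, for survivin, which sits in the same complex, was at 15.8, 24.9 and 18.3 in the glands and between 42.4 and 62.9 in the tumors, with a median of 49.8 (log2 fold change 1.33, standard error 0.16, adjusted p = 3.11e-05, limma). For Ttk, Aurkb and Birc5 the groups did not overlap, and Birc5 had the lowest adjusted p of the 48 genes. The other 4 genes had log2 fold changes between 0.77 and 0.93. Aurka, Cdc20 and Bub1b passed the FDR, and Plk1, the polo-like kinase, did not (log2 fold change 0.86, standard error 0.48, adjusted p = 0.209, limma). The smallest change was that of Bub1b, for the checkpoint protein BUBR1, at 19.1, 25.7 and 10.2 in the glands and between 21.7 and 39.1 in the tumors, with a median of 30.0 (log2 fold change 0.77, standard error 0.23, adjusted p = 0.0231, limma). For Bub1b, tumors 5 and 9 were below gland 2.

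The 5 kinetochore and centromere genes included 3 that were significantly higher. Cenpa, for the histone H3 variant that marks centromeres, was at 12.7, 18.6 and 36.1 normalized cpm in the glands and between 33.9 and 82.8 in the tumors, with a median of 58.0 (log2 fold change 1.43, standard error 0.32, adjusted p = 0.00352, limma). The value of gland 3 lay above that of tumor 6. Ndc80 and Nuf2 encode subunits of the complex that binds microtubules at the kinetochore. Ndc80 was at 7.06, 10.1 and 5.24 in the glands and between 13.1 and 22.1 in the tumors, with a median of 17.3 (log2 fold change 1.15, standard error 0.21, adjusted p = 0.000932, limma). Nuf2 was at 6.94, 11.2 and 9.996 in the glands and between 13.9 and 29.2 in the tumors, with a median of 21.9 (log2 fold change 1.13, standard error 0.21, adjusted p = 0.000865, limma). For both subunits the groups did not overlap. Ndc80 without gland 3 and Nuf2 without gland 1 fell under 2-fold (both 0.95 on the log2 scale) and were no longer called. Cenpf, for a large kinetochore protein, passed the FDR (log2 fold change 0.98, adjusted p = 0.0209, limma). Cenpe, for a kinetochore motor, was the smallest of the group, with 10.3, 17.1 and 4.14 in the glands, between 7.74 and 29.3 in the tumors and a median of 20.3 (log2 fold change 0.85, standard error 0.39, adjusted p = 0.123, limma). Both tumor 9 and gland 3 were low for Cenpe, and the groups overlapped.

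The 4 genes for spindle proteins held 0 that were significantly higher by limma, with log2 fold changes between 0.63 and 0.95. At an unadjusted p below 0.05, 4 of 4 were higher, against 20.0% of all genes. The counts of significantly higher genes were 0 with edgeR and 1 with DESeq2, against 9.51% and 10.6% of all genes. Kif23, for a kinesin of the central spindle, was at 10.7, 15.4 and 7.31 normalized cpm in the glands and between 14.2 and 32.3 in the tumors, with a median of 22.8 (log2 fold change 0.95, standard error 0.24, adjusted p = 0.00781, limma). Kif20a, for a kinesin of late mitosis, was at 13.96, 16.5 and 8.05 in the glands and between 15.0 and 27.4 in the tumors, with a median of 19.5 (log2 fold change 0.63, standard error 0.21, adjusted p = 0.0376, limma). Both overlapped at the level of gland 2. Kif11, the kinesin that separates the spindle poles, also passed the FDR (log2 fold change 0.70), and Tpx2, an activator of Aurora A with the same value of 0.70, did not (adjusted p = 0.0777, limma).

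Of the 10 licensing genes, 0 were significantly higher by limma, where 10.2% of all genes were, and 5 passed the FDR alone, with a median log2 fold change of 0.57. At an unadjusted p below 0.05, 7 were higher, against 20.0% of all genes. The count of significantly higher licensing genes was 1 with edgeR and 1 with DESeq2, against 9.51% and 10.6% of all genes. Orc1, for the largest subunit of the origin recognition complex, was at 3.30, 3.41 and 5.36 normalized cpm in the glands and between 5.96 and 12.5 in the tumors, with a median of 8.26 (log2 fold change 0.92, standard error 0.20, adjusted p = 0.00343, limma). The groups did not overlap for Orc1, which changed most of the 10. It was under 2-fold by limma, and it was the licensing gene called with edgeR (log2 fold change 1.08, adjusted p = 0.00453) and DESeq2 (1.14, adjusted p = 3.39e-05), and by limma without gland 3 (1.11). Mcm2 (Entrez 17216; chr6:88883474-88898780), for a subunit of the helicase, had the smallest change, at 35.8, 28.7 and 13.3 in the glands and between 8.88 in tumor 9 and 38.6 in tumor 6, with a median of 25.5 (log2 fold change -0.021, standard error 0.39, adjusted p = 0.976, limma). Only 1 tumor was above all glands for Mcm2. Among the 6 subunits of the MCM2-7 helicase, which is built from 1 copy of each, Mcm4 and Mcm6 passed the FDR with log2 fold changes of 0.62 and 0.68 and no overlap between the groups, and Mcm3 (0.52), Mcm5 (0.50) and Mcm7 (0.31) did not pass it. Differences between subunits were not tested, and with GC and length trends removed Mcm3 and Mcm5 passed the FDR as well (adjusted p = 0.0384 and 0.0424, limma). Per kb of the longest coding transcript, the mean level of the 6 subunits ran from 7.58 normalized cpm per kb for Mcm2 to 21.5 for Mcm7 in the tumors, and from 7.70 for Mcm2 to 17.2 for Mcm7 in the glands. Cdc6 and Mcm10 also passed the FDR, with log2 fold changes of 0.67 and 0.75, and Cdt1 did not (0.49, adjusted p = 0.0524, limma). Cdc6 did not pass it without gland 1, 2 or 3 (adjusted p = 0.0507, 0.0547 and 0.0592, limma). Mcm10 did not pass it without gland 3 (adjusted p = 0.0748, limma).

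At the replication fork, Pcna (Entrez 18538; chr2:132249286-132253180), the sliding clamp of the polymerases, was at 54.1, 52.1 and 94.0 normalized cpm in the glands and between 83.6 in tumor 3 and 251 in tumor 1, with a median of 120.5. Its log2 fold change of 1.02 was significant (standard error 0.31, adjusted p = 0.0225, limma), but tumors 3 and 6 were below gland 3. Without tumor 1, 5, 9 or 10 or without gland 1 or 2, Pcna was no longer called, and over all fits without 1 library its log2 fold change was between 0.87 and 1.29. Gins1 and Gins2 encode subunits of the GINS complex. Gins1 passed the FDR, with a log2 fold change of 0.997 that lay just under the limit of 2-fold (adjusted p = 0.00775, limma). It was called with edgeR (1.10) and DESeq2 (1.14), with smaller pseudocounts, with recomputed scaling factors and without gland 3 (1.23). Thus 2 of the 3 fork genes were called with edgeR and 2 with DESeq2. Gins1 did not pass the FDR without gland 1 (0.84, adjusted p = 0.0642, limma) or with GC and length trends removed (0.60, adjusted p = 0.130, limma). Nor did it with each library scaled to epithelial genes (0.44, adjusted p = 0.262, limma). Gins2 was at 9.08, 8.16 and 26.2 in the glands and between 15.5 and 51.6 in the tumors, with a median of 23.8 (log2 fold change 0.92, standard error 0.35, adjusted p = 0.0691, limma). Only 4 of the 10 tumors exceeded gland 3 for Gins2, which was called without gland 3 (adjusted p = 0.00661, limma). Without gland 1 or gland 2 the adjusted p of Gins2 was 0.304 and 0.334 (limma).

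The 4 genes of nucleotide supply all passed the FDR, and for each of them all 10 tumors were above all 3 glands. Tk1, for the thymidine kinase of S phase, was at 14.2, 16.9 and 13.3 normalized cpm in the glands and between 24.4 and 50.4 in the tumors, with a median of 34.5 (log2 fold change 1.16, standard error 0.19, adjusted p = 0.000423, limma). The smallest change was that of Rrm1, for the large subunit of ribonucleotide reductase, at 55.4, 58.0 and 45.5 in the glands and between 59.6 and 102 in the tumors, with a median of 82.3 (log2 fold change 0.59, standard error 0.18, adjusted p = 0.0238, limma). Rrm2, the small subunit, and Tyms, the thymidylate synthase, had log2 fold changes of 0.89 and 0.75.

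Of the genes for chromosome structure, 0 of 2 were significantly higher by limma, edgeR or DESeq2. By limma, 1 was higher at an unadjusted p below 0.05, against 20.0% of all genes. Mki67 (Entrez 17345; chr7:135689784-135716450), for Ki-67, the protein commonly stained to count dividing cells and a coat of mitotic chromosomes, was at 75.4, 112 and 34.0 normalized cpm in glands 1, 2 and 3. Its tumor values ranged from 44.2 in tumor 9 to 185 in tumor 4, with a median of 129.8 (log2 fold change 0.74, standard error 0.42, adjusted p = 0.212, limma). Tumors 1, 5 and 9 were below gland 1, and tumor 10 was below gland 2. Top2a (Entrez 21973; chr11:98992947-99024199), for the topoisomerase that untangles replicated chromosomes, was at 52.0, 70.8 and 30.0 in the glands and between 49.8 and 119 in the tumors, with a median of 85.2 (log2 fold change 0.74, standard error 0.26, adjusted p = 0.0436, limma). Tumors 5 and 9 were below gland 2 for Top2a. The adjusted p of Mki67 lay between 0.0533 and 0.988 over the alternative settings.

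**Figure D2:**
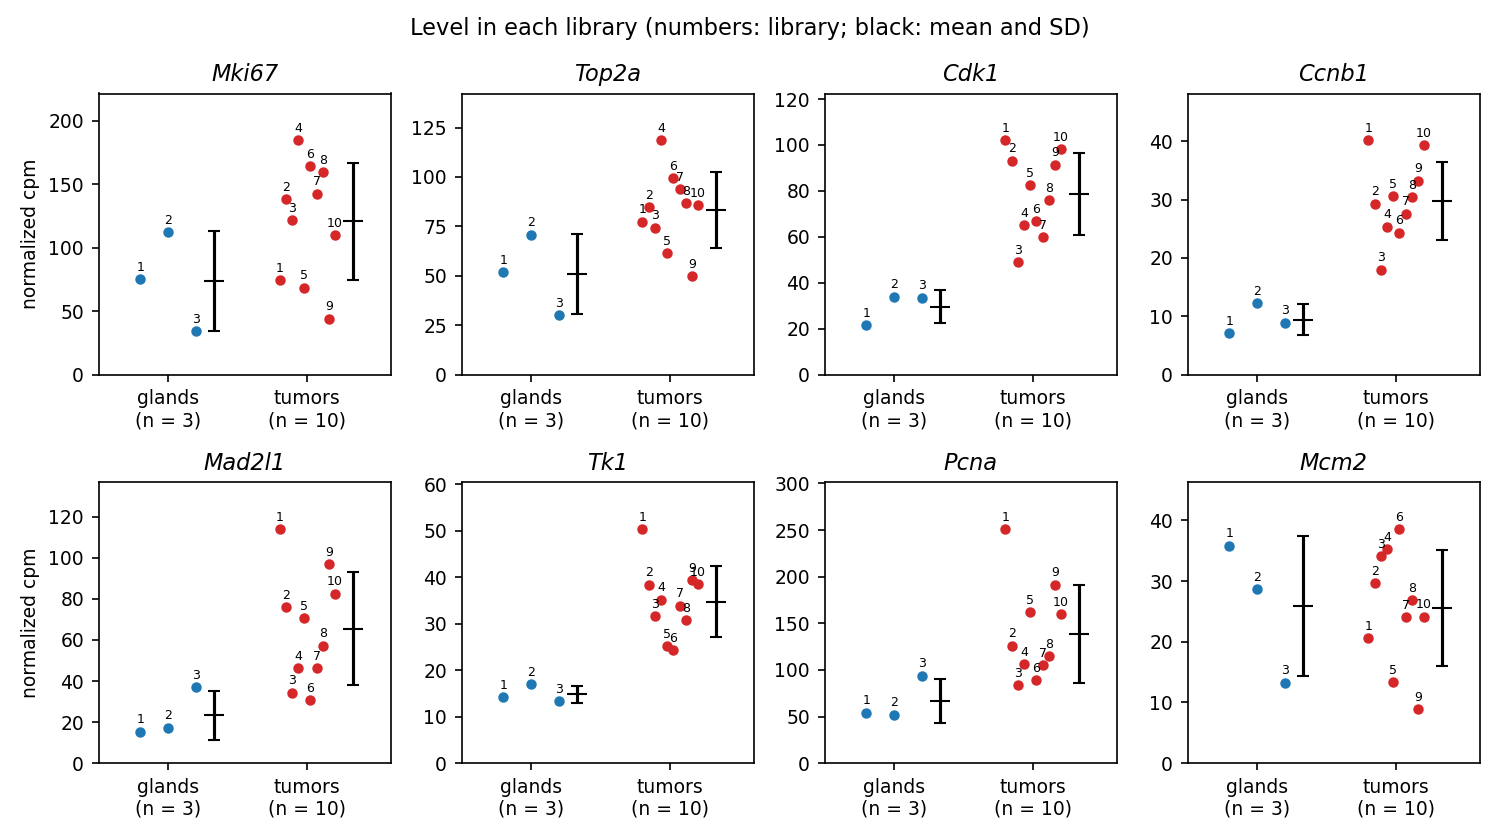
Normalized cpm of 8 of the genes in each of the 3 glands (blue) and 10 tumors (red), numbered by library, with the mean and SD in black; each axis starts at 0. Cdk1, Ccnb1 and Tk1 show no overlap between the groups, whereas Mki67, Top2a and Mcm2 are low in tumor 9 and in gland 3.

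Among the transcription factors of the cell cycle and Brca1, 0 of 4 genes were significantly higher by limma and 2 passed the FDR. The count of significantly higher genes in this group was 0 with edgeR and 0 with DESeq2. By limma, 2 of the 4 were higher at an unadjusted p below 0.05, against 20.0% of all genes. Mybl2, for B-MYB, was at 6.04, 5.16 and 1.83 normalized cpm in the glands and between 4.79 and 10.1 in the tumors, with a median of 9.16 (log2 fold change 0.83, standard error 0.29, adjusted p = 0.0434, limma). E2f1, an activator of S phase genes, was at 16.9, 15.6 and 9.51 in the glands and between 9.10 and 23.2 in the tumors, with a median of 17.0 (log2 fold change 0.26, standard error 0.25, adjusted p = 0.474, limma). Both genes overlapped between the groups. Foxm1, the activator of G2 and M phase genes, did not pass the FDR either (log2 fold change 0.74, adjusted p = 0.248, limma). Brca1, which acts in DNA repair, passed it (log2 fold change 0.58, adjusted p = 0.0190, limma), with no overlap between the groups.

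Of 65 further mitosis genes, 64 passed the filter. By limma, 28 were significantly higher and 0 lower, against 10.2% and 6.99% of all genes, and 45 passed the FDR upward, against 14.8%. The median log2 fold change of the 65 was 0.92. The largest significant rises were those of Cks2, a CDK-binding subunit (log2 fold change 1.83, adjusted p = 0.00841, limma), of Ect2, the exchange factor of cytokinesis (1.58, adjusted p = 0.00319, limma), and of Depdc1a (1.55, adjusted p = 0.00297, limma). Depdc1a was below the filter limit of 5 normalized cpm in all 3 glands and passed the filter only through the tumors. Of 46 further replication genes, 45 passed the filter, 5 were significantly higher and 1 lower, against 10.2% and 6.99% of all genes, with a median of 0.55. The FDR was passed upward by 15 of the 45, against 14.8% of all genes, and 11 of the 46 listed had every tumor above every gland, against 10.7%. The counts of significantly higher genes were 5 with edgeR and 7 with DESeq2 for this list and 30 and 32 for the mitosis list. With edgeR and DESeq2, 9.51% and 10.6% of all genes were higher. Among the replication genes significantly higher by limma, Gmnn, for the Cdt1 inhibitor geminin (log2 fold change 1.33, adjusted p = 0.0299, limma), Prim1, for a primase subunit (1.25, adjusted p = 0.0109, limma), and Wdhd1, for a fork protein (1.23, adjusted p = 0.000312, limma), rose most. Pold3, for a subunit of polymerase delta, was lower, at 98.8, 122 and 139.8 normalized cpm in the glands against 23.9 to 63.8 in the tumors (log2 fold change -1.52, standard error 0.24, adjusted p = 0.000239, limma). Of 17 genes of the RB, E2F and DREAM families, 16 passed the filter and 1 was significantly higher, where 10.2% of all genes were. It was E2f2 (log2 fold change 1.06, adjusted p = 0.0329, limma). Of the 13 APC/C subunits, 0 were significantly changed by limma, edgeR or DESeq2, and 0 had an unadjusted p below 0.05 by any of them.

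For 38 of the 48 genes the RefSeq table of promoters (GRCm38.p6, the mm10 build) held a window from 250 bases before to 50 bases after the transcription start, 39 windows in all. The genes without a window were Mcm4, Gins1, Gins2, Ccne2, Ccna2, Cdc25c, Aurkb, Kif20a, Tpx2 and Foxm1. The windows were searched on both strands for the CHR (TTTGAA), its variant TTCGAA, the CCAAT box (letters CCAAT) and 4 forms of the E2F core. The first form is TTCCCGC, the next form is TTTGGCG, the other two forms are TTTCGCG and, last, TTGGCGC. The forms TTTGGCG and TTGGCGC can overlap each other, and TTGGCGC can overlap a CCAAT box read on the other strand. A CHR or its variant was found in 14 of 19 windows of mitotic genes (73.7%) and in 2 of the 15 windows of 14 replication genes (13.3%), against 19.2% of all 32851 windows. An E2F core was found in 2 of 19 windows of mitotic genes (10.5%) and in 10 of 15 of replication genes (66.7%), against 8.41% of all windows. A CCAAT box was common to both, in 15 of 19 (78.9%) and 11 of 15 (73.3%) windows, against 37.4% of all. Of the 12 windows of genes that were significantly higher, 6 held a CHR or its variant. Matches are a description of the letters and do not show that a factor binds.

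**Figure D3:**
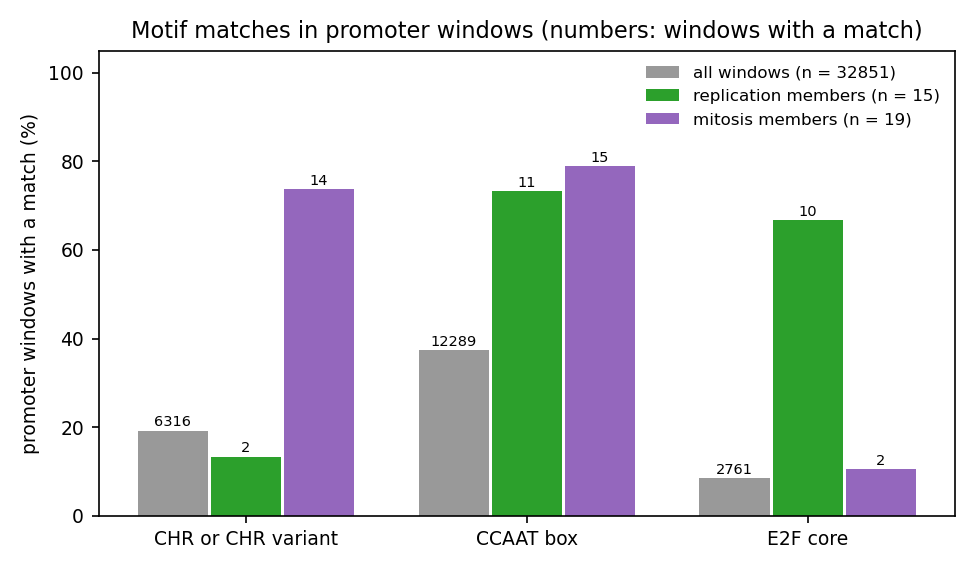
Share of RefSeq promoter windows (percent, bars from 0) with a match to a CHR or its variant, a CCAAT box or an E2F core, for all windows, the windows of replication genes and those of mitotic genes; numbers above the bars are windows with a match. Mitotic genes stand at 14 of 19 for the CHR and replication genes at 10 of 15 for the E2F core.

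The 100 bases before the start used by the RefSeq table are shown for 8 of the genes, from the coding strand of the gene, 5′ to 3′, to set promoters of mitotic genes beside those of replication genes. Capitals mark complete matches to the motifs above in either direction. Ccnb1, the gene with the largest change, lies at chr13:100786487-100786586 (minus strand), Cdk1 at chr10:69352913-69353012 (minus), Cdc20, the activator of the APC/C, at chr4:118437344-118437443 (minus) and Kif11 at chr19:37376282-37376381 (plus). Orc1 lies at chr4:108579354-108579453 (plus), Mcm6 at chr1:128359706-128359805 (minus), Rrm1 at chr7:102441595-102441694 (plus) and Mcm2 at chr6:88898781-88898880 (minus). For Orc1 this start lies 3749 bases inside the gene, whose outermost annotated start is further upstream, and for the other 7 it is the outermost one. Of all 39 windows searched, 18 have a start inside the gene, by 9 to 3749 bases. In the first 4, Cdk1, Cdc20 and Kif11 carry a CHR (written TTCAAA where it faces the other way) close to a CCAAT box (written ATTGG where it does), and Ccnb1 shows a pair of CCAAT boxes. Ccnb1 and Cdk1 are also the 2 of 19 mitotic windows with an E2F core. It lies at -102 to -96 from the start in Ccnb1, and at -178 to -172 and -131 to -125 in Cdk1. Those matches are not complete in the bases shown. In the last 4, Orc1, Mcm6 and Rrm1 carry an E2F core near a CCAAT box, and Mcm2, whose change was not resolved, shows a CHR and no E2F core in these bases.
Ccnb1: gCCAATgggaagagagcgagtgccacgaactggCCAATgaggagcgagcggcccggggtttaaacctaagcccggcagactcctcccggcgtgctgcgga
Cdk1: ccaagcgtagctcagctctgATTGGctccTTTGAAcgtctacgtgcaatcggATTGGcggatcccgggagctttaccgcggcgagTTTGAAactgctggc
Cdc20: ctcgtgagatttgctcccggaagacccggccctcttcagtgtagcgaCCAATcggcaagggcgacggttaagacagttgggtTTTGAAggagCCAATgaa
Kif11: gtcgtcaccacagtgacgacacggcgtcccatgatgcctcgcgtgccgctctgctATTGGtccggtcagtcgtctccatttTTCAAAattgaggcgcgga
Orc1: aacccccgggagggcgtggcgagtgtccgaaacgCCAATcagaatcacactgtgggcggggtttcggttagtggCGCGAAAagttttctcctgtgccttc
Mcm6: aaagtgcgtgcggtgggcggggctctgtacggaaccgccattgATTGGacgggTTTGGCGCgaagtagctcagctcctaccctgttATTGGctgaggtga
Rrm1: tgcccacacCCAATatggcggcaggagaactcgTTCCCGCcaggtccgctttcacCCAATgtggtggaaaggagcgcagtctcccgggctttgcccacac
Mcm2: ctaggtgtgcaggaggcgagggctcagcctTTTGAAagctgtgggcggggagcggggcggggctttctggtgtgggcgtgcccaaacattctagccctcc

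The tumors differed from each other in which genes were high rather than only in how high all of them were. Relative to the mean of the glands, the median log2 level of the 48 genes was between 0.60 in tumor 5 and 1.07 in tumor 2. Between 30 genes (tumors 5 and 9) and 46 genes (tumors 2 and 8) were above all 3 glands in a tumor. Tumor 1 held the highest tumor value for 16 genes, among them Orc1, Pcna, Tk1, Cdk1, Ccnb1 and Mad2l1, and tumor 4 for 10 genes, among them Mki67, Top2a, Foxm1, Plk1, Cenpe and Cenpf. Tumor 9 held the lowest value for 16 genes, among them Mki67, Top2a, Foxm1, Plk1, Aurka, Cenpe and Mcm2, yet the highest for Bub1, Ttk and Cdc6. Tumor 3 held the lowest value for 14 genes, among them Ccnb1, Cdk1, Bub1, Ttk, Pcna and Orc1, yet the highest for E2f1. The SD of the log2 level over the tumors had a median of 0.31 for the 48 genes and of 0.37 for all genes tested. It was smallest for Mcm4 (0.16), for which the tumors lay between 38.4 and 56.5 normalized cpm, and largest for Foxm1 (0.76), for which they lay between 5.01 and 34.9.

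**Figure D4:**
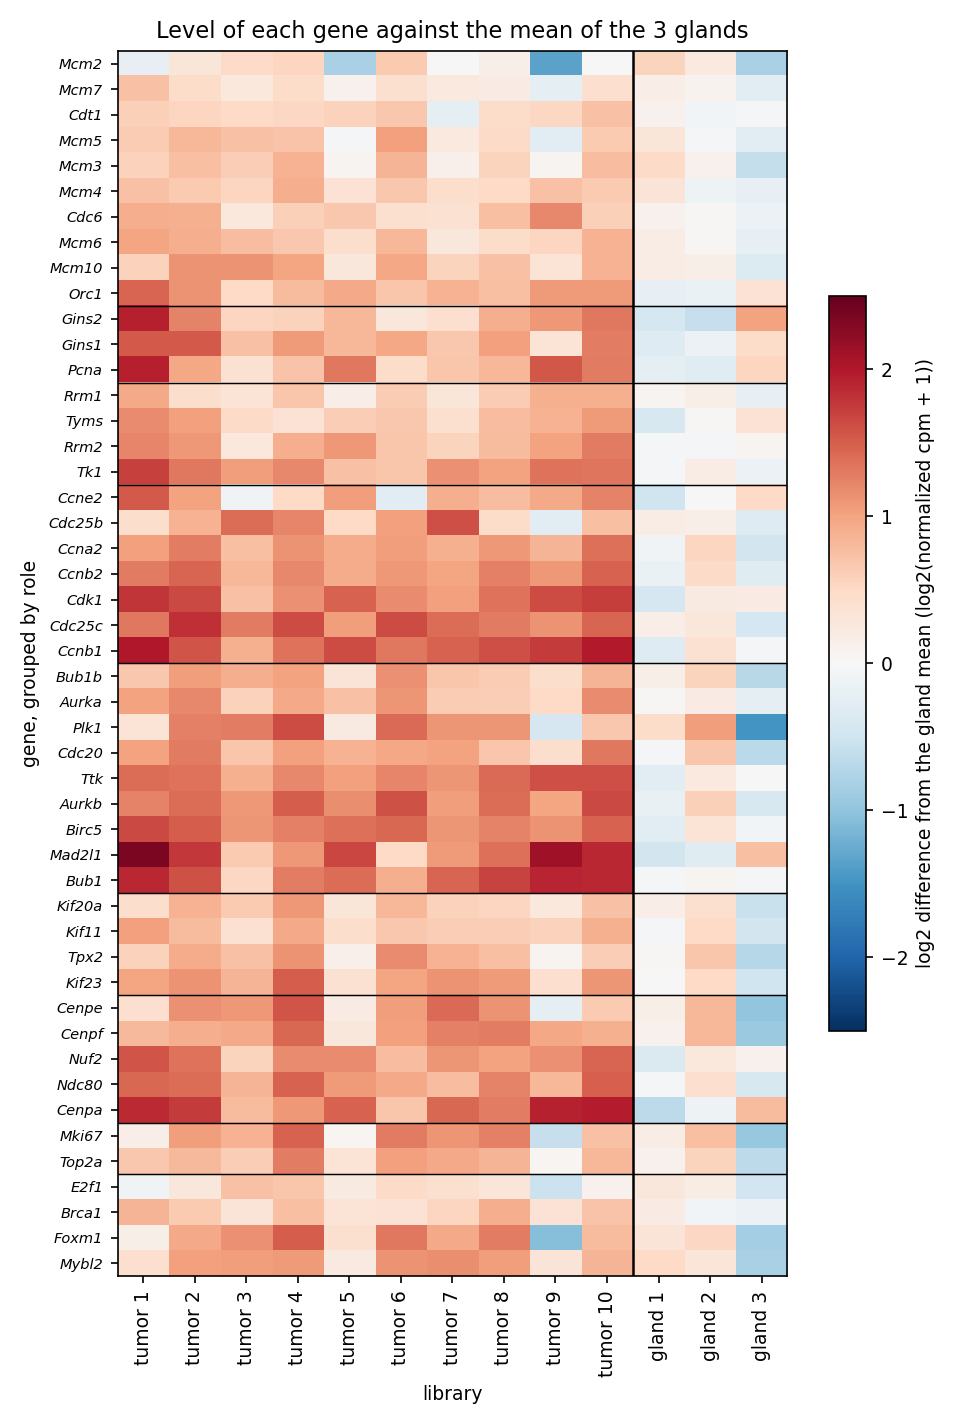
Log2 level of each of the 48 genes (rows, grouped by role and separated by lines) in the 10 tumors and 3 glands (columns), as the difference from the mean of the 3 glands on the log2(normalized cpm + 1) scale. Most tumor cells are red, tumor 9 is blue for Mcm2, Foxm1 and Mki67 and dark red for Mad2l1, Bub1 and Cenpa, and gland 3 is blue for Plk1, Mki67, Cenpe and Cenpf.

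Over the 10 tumors, the genes most like Mki67 were Plk1 (Pearson r = 0.97, Spearman rho = 0.88), Cenpe (0.96 and 0.84), Foxm1 (0.96 and 0.94) and Tpx2 (0.93 and 0.94), and 18 of the 47 other genes had a Pearson r above 0.5 with it. Pcna (-0.77 and -0.72), Mad2l1 (-0.69 and -0.70), Cdc6 (-0.64 and -0.46) and Cenpa (-0.61 and -0.72) ran in the opposite order, and 18 of the 47 had a negative r. Without tumors 5 and 9, the farthest from the median of Mki67, 11 of the 47 genes had a Pearson r above 0.5 and 27 a negative r, over 8 tumors. Pearson's r was then 0.91 for Plk1, 0.87 for Cenpe, 0.95 for Foxm1 and 0.81 for Tpx2, and -0.80 for Pcna, -0.70 for Mad2l1, -0.33 for Cdc6 and -0.61 for Cenpa. For Mcm5 it went from 0.74 to 0.10 and for Mcm3 from 0.67 to 0.19, so that the likeness of these genes to Mki67 rested on those tumors. These values are given as a description without a test, since the tumors share mice and all genes of a tumor share its library. The median absolute log2 difference over the 48 genes was 0.40 (median of 5 pairs) within a mouse and 0.34 (median of 40 pairs) between mice, and tumors 9 and 10 of the same female differed in Mki67 (44.2 against 110.0 normalized cpm) and in Foxm1 (5.01 against 20.6).

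Base composition moved with this pattern. Across the 48 genes, the Pearson r between GC content of the longest transcript and the deviation of a library was 0.66 in tumor 3, 0.52 in tumor 6 and 0.42 in gland 1, and -0.43 in tumor 9, -0.38 in tumor 1 and -0.33 in gland 3. Across 11221 genes tested with a known GC content, it was 0.39 in tumor 3 and 0.41 in tumor 6, and -0.44 in tumor 9 and -0.46 in tumor 1, where genes are not independent replicates. Mki67 and Cenpe, which were low in tumor 9, have long transcripts with a GC content of 46.6% and 43.0%, and Foxm1 and Plk1 have 54.6% and 56.0%. Tumor 9 and gland 3 also had the highest share of Rn45s reads of their groups. Tumor 6, with the next highest share of the tumors (9.32%), had a positive r, and tumor 1, with a negative r, had 1.21%. A link between this share and GC content was not tested. The 24 genes with shorter transcripts held 11 of the significantly higher genes and the 24 with longer ones 4. When trends on GC content and transcript length were removed from each library, a setting chosen after the data were seen, 10 of the 48 genes were significantly higher, with 5 in each set of 24, against 9.26% of all genes. The median of the 48 was then 0.81 on the log2 scale and that of all genes -0.077. Ccnb1, Cdk1, Cdc25c, Bub1, Mad2l1, Birc5, Aurkb, Ttk and Cenpa were still among the 10, and Cenpf was added. Tk1 (log2 fold change 0.96), Ccna2 (0.96), Ccnb2 (0.95), Ndc80 (0.97), Nuf2 (0.93) and Pcna (0.75) passed the FDR in this setting but lay under 2-fold, and 37 of the 48 genes passed the FDR alone, against 16.4% of all genes. Mki67 did not pass the FDR in this setting either (log2 fold change 0.83, adjusted p = 0.0533, limma).

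**Figure D5:**
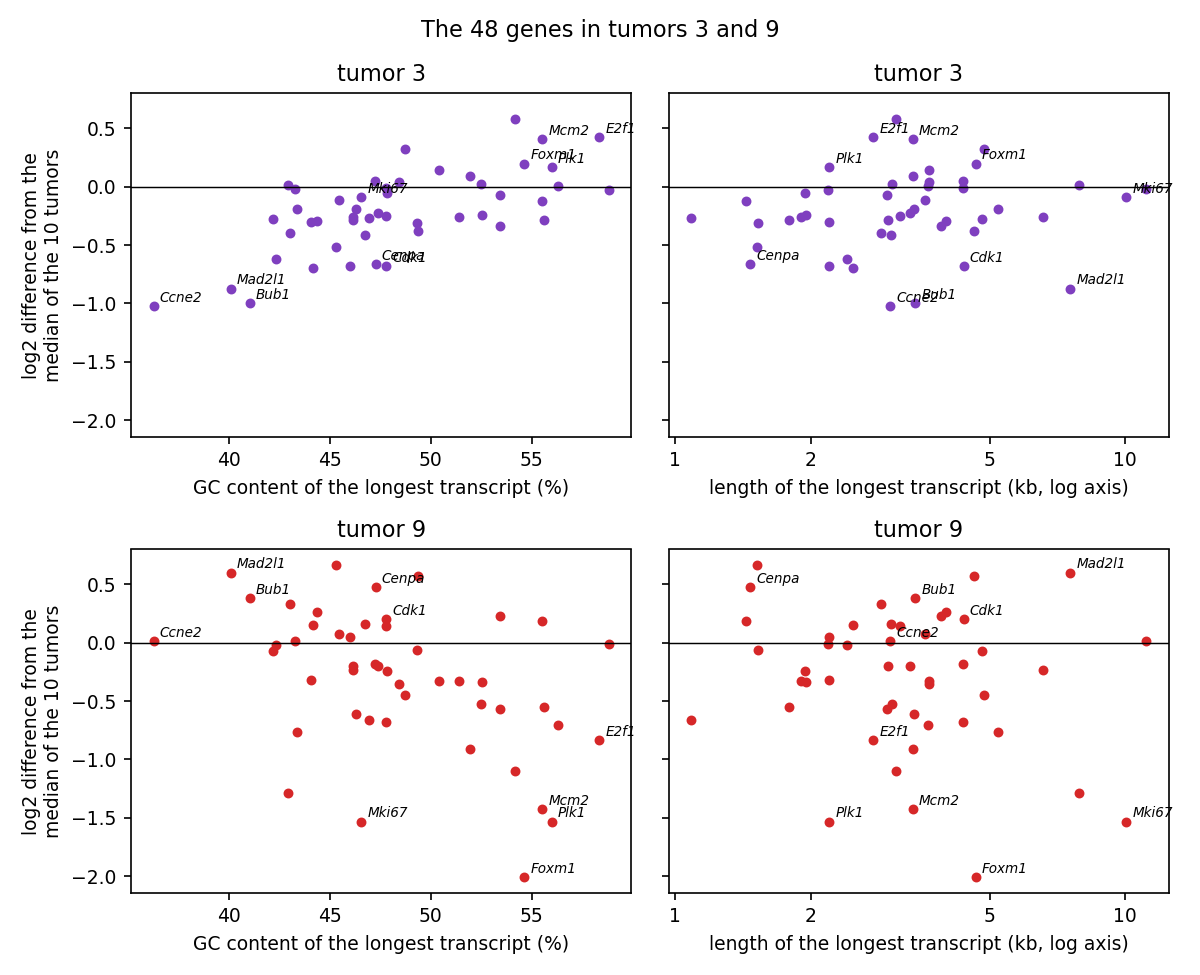
Difference of tumor 3 (top) and tumor 9 (bottom) from the median of the 10 tumors for each of the 48 genes, on the log2(normalized cpm + 1) scale, against the GC content (left, percent) and length (right, kb, log axis) of the longest transcript. In tumor 3 low-GC genes such as Bub1 and Mad2l1 lie below 0, and in tumor 9 high-GC genes such as Foxm1, Plk1 and Mcm2 lie below 0 together with the long transcript of Mki67.

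The glands also differed among themselves. Gland 2 held the highest gland value for 26 of the 48 genes and gland 3 the lowest for 32. For Plk1, gland 3 was at 2.07 normalized cpm against 10.9 and 17.0 in glands 1 and 2, and for Mki67 at 34.0 against 75.4 and 112. Without gland 3, the median fold change of the 48 genes fell to 0.62 on the log2 scale, with 16 significantly higher against 12.9% of all genes, and without gland 2 it was 0.99, with 20 against 9.30%. Glands 1 and 3 carried the lymphocyte markers, and with gland 2 as the only gland, whose spread is then assumed to be that of the tumors, the median was 0.65 and 6 genes were significantly higher, against 7.89% of all genes. In that setting the log2 fold change was -0.016 for Mki67 and -0.19 for Plk1.

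Markers of cell types and the milk genes changed between tumors and glands as well. The summed adipocyte markers (0 of 10 higher, 3 of 3 tested lower) were at 3985, 4481 and 11563 normalized cpm in glands 1, 2 and 3 and between 40.8 and 452 in the tumors, and the 7 milk genes, all significantly lower, at 165034, 190125 and 305121 against 1384 to 76623. Endothelial markers (6 of 7 lower) were at 537, 540.3 and 198 against 49.1 to 117, and fibroblast markers (5 of 7 lower) at 3916, 4432 and 3917 against 383 to 1128. Of 14 lymphocyte markers 4 were tested and 3 lower, and germinal center markers, which dividing B cells express, summed to 75.8, 57.6 and 87.0 in the glands and to between 68.3 and 91.3 in the tumors, with 1 of 3 tested higher. Squamous markers (8 of 9 tested higher) were at 39.6, 39.5 and 39.1 in the glands and between 355 and 3257 in the tumors, basal epithelial markers (4 of 7 higher, 3 lower) at 1632, 2178 and 674 against 929 to 4309, and 4 of 18 epithelial markers were higher and 1 lower. Macrophage markers (2 of 8 higher) were at 393, 455 and 452 against 568 to 939, neutrophil markers (3 of 3 tested higher) at 10.9, 3.92 and 49.5 against 302 to 3940, and skeletal muscle markers (1 of 1 tested higher) at 5.69, 3.72 and 24.9 against 8.24 to 2069, with the highest sums in tumors 4 and 10. Without tumors 4 and 10, 14 of the 48 genes were significantly higher, against 9.70% of all genes. The part of these cell types in the levels of the replication and mitosis genes was not tested. Scaling each library to the epithelial genes lowered all genes together, to a median log2 fold change of -0.56, and put the median of the 48 at 0.31. With that shift 1 of the 48, Ccnb1, was significantly higher, against 5.29% of all genes.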

How the data were processed

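From frozen tumors and glands the authors prepared total RNA (RNeasy Mini Kit). They aligned the paired-end reads to mm10 using Rsubread, obtained gene counts from featureCounts and applied edgeR for normalization. Libraries were made at the UNMC core facility and at Novogene, and which library was made where is not given in the sources used here. The deposited signal values are counts over a library size scaled by a factor for each library, here called normalized cpm. Divided by the step that 1 read makes in its library, 100% of values came out whole (tolerance 0.05 reads), which gave back the read counts. The planned test named edgeR for raw counts and limma for normalized values, and limma was therefore used.

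Genes not above 5 normalized cpm in most libraries were dropped (3418), and 11795 were tested with limma 3.58.1 (R 4.3.3) with a trend, on log2(normalized cpm + 1), which understates the change of low genes. Genes past an FDR of 0.05 and a 2-fold change were called. On the recovered reads, edgeR 4.0.16 (quasi-likelihood) called 1122 genes higher and 952 lower, and DESeq2 1.42.0 called 1248 and 911. Alternatives varied the filter, pseudocount, scaling, test, threshold, treatment of tumors of one mouse and the libraries included. The members and all gene lists were chosen with earlier results of these data known. Values are given for Mki67, Pcna, Top2a, each called gene, the largest and smallest change of each role group, and up to 3 called rises and falls of each other list; further genes were named after their values were seen. GC content and transcript length are those of the longest transcript in the reference annotation. p-values measure the spread between these libraries and take the tumors as separate samples. Pairs of libraries of the same group differed by a chi-square per gene of 20.9 or more, and none was counted as a duplicate. Reads shared with paralogs, pseudogenes or overlapping genes could not be reassigned, and whether counting used strand is not given in the sources used here.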

Additional observations from a re-analysis of the deposited data

Results flagged for a closer look

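In each of the 48 genes, the highest and the lowest of the 10 tumors were compared with the rest by the gap to the nearest other tumor over the whole range. By this measure, 2 of the 48 genes had a tumor that stood apart from the other 9. Chance flags about 1 in 20 groups, so this count is not above that rate. Cdt1, the licensing factor, was at 18.2 normalized cpm in tumor 7, below all 3 glands and below the other tumors, which lay at 30.0 or more. Gins2, a GINS subunit, was at 51.6 normalized cpm in tumor 1, above the next tumor, tumor 10, at 32.9.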

How the results depend on the processing

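Over the 48 genes the median change (0.85, log2) stayed positive, and 0 were significantly lower, in all alternatives tried. The number of significantly higher genes, 15 as reported, stayed within 1.5 times of that value except in 5 settings. It was 1 with each library scaled to epithelial genes, 35 with plain cpm without Rn45s, 34 at an FDR of 0.05 without a limit on the fold, 6 without glands 1 and 3 and 0 with the replicate block. Leaving out 1 library at a time gave between 12 (without gland 1) and 20 (without gland 2) higher genes and medians between 0.62 and 0.99. The FDR alone was passed upward by 23 genes without gland 1 (1203 of 11891 genes in all) and 24 without gland 3 (2120 of 11873). That number was 7 with epithelial scaling (757 of 11653), 43 with plain cpm (3780 of 11981) and 0 with the replicate block (362 of 11795). The median was 0.31 with epithelial scaling, 1.19 with plain cpm and 0.65 without glands 1 and 3. For all genes, 616 were higher and 2479 lower with epithelial scaling, which moved the median of all genes to -0.56, and 2095 and 506 with plain cpm, which moved it to 0.38. Without the filter 1538 were lower, and 1528 were at the FDR alone.

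The tumors and glands that share a replicate number come from different mice, and the correlations of their deviations were -0.58, 0.04 and -0.66, so that the numbers do not pair them. With the replicate number as a block, 0 of the 48 genes were significantly higher by limma (19 at an unadjusted p below 0.05), with a median of 0.90, and 362 genes in all were higher and 182 lower. With tumors of the same mouse taken as correlated 15 of the 48 were higher, and with reads summed per mouse 18. Of the 15 called genes, 5 lost their call in no setting other than the block and epithelial scaling, and 5 lost it when 1 library was left out: Pcna, Ccna2, Mad2l1, Ndc80 and Nuf2.

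The sign turned for Mcm2, to 0.35 with plain cpm, 0.13 with reads summed per mouse, 0.14 without the mouse of tumors 8, 9 and 10, 0.19 with the block, 0.012 with GC and length trends removed, and between -0.42 and 0.26 when 1 library was left out. Epithelial scaling rescales whole libraries and so lowers the values of all genes together, which by construction turns genes with a smaller change than that shift: Cdt1 (-0.10), Mcm3 (-0.061), Mcm5 (-0.090), Mcm7 (-0.29) and E2f1 (-0.30). Without glands 1 and 3 the sign turned for Plk1 (-0.19) and Mki67 (-0.016). The cause of the turns in the other settings was not tested. Trends on GC and length, and the settings without tumor 9 and gland 3 (16 genes), without tumors 4 and 10 or without glands 1 and 3, were chosen after seeing the data. The lowest count of these genes in a library was 13 reads, and there were 3 glands.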
